A study of Mus musculus with 88 samples.

Results

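The genes described here are 10 activity-induced effectors outside the Fos/Jun, Egr, Nr4a and Dusp families: Arc, Npas4, Ier2, Btg2, Gadd45b, Ptgs2, Klf4, Nptx2, Rcan1 and Trib1. They were chosen by name, as the rows with these symbols in a raw count table of 55487 genes from the mouse nucleus accumbens, to be read between guides in each of 6 arms and between D1 and D2 arms. All 10 passed the filter on low counts, among 25420 genes that did. Because guide and D1 to D2 differences took part in the choice, those values are given as descriptions. In every group a pair of herpes simplex virus vectors was injected into the nucleus accumbens of C57BL/6-backcrossed mice, and tissue was taken 6 days after surgery. One vector carried nuclease-dead Cas9 fused to a constitutively active CREB mutant, in control and targeted mice alike. The other carried either a guide to the Fosb locus (g11, targeted) or a non-targeted guide (gNT, control), the aim being to act on Fosb, which encodes the transcription factor ∆FosB, in D1 medium spiny neurons, in D2 ones or in both.

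The 87 libraries used form 12 groups. The F_D1 arm holds female D1-Cre mice given Cre-dependent vectors (8 control and 6 targeted libraries), and M_D1 holds males of the same kind (4 control, 7 targeted). F_D2 holds female D2-Cre mice with Cre-dependent vectors (8 control, 8 targeted), and M_D2 males (8 control, 7 targeted). F_D1-D2 (8 control, 12 targeted) and M_D1-D2 (7 control, 4 targeted) are also D1-Cre mice, but their vectors did not depend on Cre. The labels state no ages. RNA came from whole dissected accumbens, so infected and uninfected cells of every type are pooled, and fewer cells of a type cannot be told apart from less RNA per cell.

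Neuronal firing raises calcium and cAMP, which activate kinases that phosphorylate CREB and other factors already bound at promoters, and immediate early genes are then transcribed within minutes without new protein synthesis. Some encode transcription factors that drive later genes, and others encode effectors that act at the synapse directly. In the striatum such genes respond to dopamine, glutamate and drugs of abuse. Several of them are also induced outside neurons by growth factors, cytokines and cell stress.

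By role, Npas4 encodes a neuron-restricted transcription factor that responds to calcium influx, Klf4 a zinc finger transcription factor, Ier2 a nuclear immediate early protein and Btg2 an antiproliferative co-regulator of mRNA decay. Arc encodes a cytoskeleton-associated protein that promotes AMPA receptor endocytosis, and Nptx2 a secreted pentraxin that clusters AMPA receptors. Ptgs2 encodes cyclooxygenase-2, Rcan1 an inhibitor of the phosphatase calcineurin, Trib1 a pseudokinase that directs ubiquitination, and Gadd45b a stress-response protein linked to DNA demethylation and MAP kinase signalling. On mm10 the gene bodies lie at chr19:4984355-4990316 (Npas4), chr4:55527143-55532466 (Klf4), chr8:84661331-84662852 (Ier2), chr1:134075170-134079120 (Btg2), chr15:74669083-74672570 (Arc), chr5:144545902-144557478 (Nptx2), chr1:150100031-150108227 (Ptgs2), chr16:92391953-92470867 (Rcan1), chr15:59648350-59657099 (Trib1) and chr10:80930073-80932204 (Gadd45b). All are annotated as protein-coding, and counts are over exons. Rcan1 shares 5014 bases of its span with Gm46555, an antisense gene on the other strand, and whether reads were counted by strand is not stated by the labels, so reads of the pair may be mixed.

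Promoter sequences are shown because the vectors in every group carry a form of CREB, whose known binding letters are TGACGTCA (the cAMP response element, CRE), and because the members later separate into genes that did and did not follow interferon-induced genes. RefSeq promoter windows on GRCm38.p6 were matched for 6 of the 10 members, namely Btg2, Ptgs2, Klf4, Gadd45b, Rcan1 (2 starts) and Npas4, and none is printed for Arc, Ier2, Nptx2 and Trib1. Letters are written 5′ to 3′ on the gene's strand, and capitals mark a CRE, its part TGACG on either strand where no full CRE is present, or the AP-1 letters TGANTCA. The Npas4 window lies within annotated exon, and 30 bases around its TGACG pair are shown.
Btg2, chr1:134079156-134079405, minus strand: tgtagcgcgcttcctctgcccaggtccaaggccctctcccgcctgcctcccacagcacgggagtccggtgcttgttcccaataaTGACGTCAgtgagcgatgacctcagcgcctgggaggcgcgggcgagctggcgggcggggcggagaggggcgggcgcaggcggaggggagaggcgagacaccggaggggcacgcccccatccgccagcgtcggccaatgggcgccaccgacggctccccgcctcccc
Rcan1, internal start, chr16:92400079-92400328, minus strand: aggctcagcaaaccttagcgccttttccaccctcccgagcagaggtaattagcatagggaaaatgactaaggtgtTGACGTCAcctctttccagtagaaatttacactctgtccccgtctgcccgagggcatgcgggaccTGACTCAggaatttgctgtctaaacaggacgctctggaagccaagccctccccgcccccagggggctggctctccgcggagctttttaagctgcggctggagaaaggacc
Npas4, chr19:4990129-4990158, minus strand: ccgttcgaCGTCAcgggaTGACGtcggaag
Gadd45b, chr10:80929841-80930072, plus strand: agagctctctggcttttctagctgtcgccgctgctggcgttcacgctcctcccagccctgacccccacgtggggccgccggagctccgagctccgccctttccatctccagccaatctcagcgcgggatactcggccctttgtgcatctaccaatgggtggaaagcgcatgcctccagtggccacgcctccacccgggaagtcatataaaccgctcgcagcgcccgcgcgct
A full CRE lay at -166 from the Btg2 start and at -175 from the internal Rcan1 start, which also held TGACTCA at -110. Npas4 held TGACG on the plus strand at -169 and on the minus strand at -179, and Klf4 held it at -232 on the minus strand. Among 32851 RefSeq windows searched on both strands, 1.55% held the full CRE, 17.8% held TGACG, which every full CRE contains, and 6.75% held TGANTCA. Neither the CRE nor TGACG was found in the 250-base windows of Gadd45b and Ptgs2 or at the upstream Rcan1 start. Of the Ptgs2 window, 183 bases are annotated as exon. The letters of the interferon-stimulated response element (ISRE), present in 2.98% of windows, were in none of the members' windows. A match is a run of letters in a short window, and its absence says nothing on binding elsewhere.

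Total counts ran from 12430387 to 69568367 a library, with a median of 31393804. In 4 libraries (F_D2-targeted 17907 and 18432, F_D1-D2-targeted 19610, M_D1-D2-targeted 18919) the 10 most abundant genes held over 90% of counts, and scaled depth fell to as little as 622204. Of the 87, 78 were from sequencing batch 1 and 9, all M_D2, from batch 2. The library labelled F_D1-targeted 17376 (female) held Y-linked transcripts, and without it the F_D1 differences between guides were 0.41 for Arc and −0.21 for Rcan1, against 0.39 and −0.21 with it. M_D1-targeted 18722 and M_D1-D2-targeted 18749 were close to equal in these genes although labelled as different arms, with 25.1 and 25.8 CPM of Arc and 6.73 and 6.65 of Npas4, and results on those arms are given without them where that moves a value. Every medium spiny marker tested was detected in each group, and the 12 together summed to between 764 and 5414 CPM, read counts scaled to a common library size by the trimmed mean of M values. Fosb, the targeted gene, had a log2 difference between guides of 0.41 (SE 0.23) in F_D1, 0.48 (0.28) in M_D1, −0.37 (0.23) in F_D2, −0.30 (0.25) in M_D2, 0.08 (0.20) in F_D1-D2 and 0.60 (0.27) in M_D1-D2. No arm passed for Fosb at an adjusted p of 0.05 (edgeR quasi-likelihood test, Benjamini-Hochberg).

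Per kilobase of exon, Rcan1 and Arc were the most abundant members, at 18.6 ± 3.24 and 18.2 ± 7.15 CPM per kb (SD, n = 87). Nptx2 followed at 7.84 ± 2.68, Gadd45b at 6.67 ± 2.41 and Btg2 at 5.35 ± 1.72 CPM per kb. Ptgs2 at 2.47, Ier2 at 2.38, Npas4 at 2.10 and Trib1 at 2.02 CPM per kb differed from each other by less than their SDs of 0.807 to 1.43. Klf4 was lowest, at 0.596 ± 0.185 CPM per kb. The order of neighbours within each of these sets lies inside the spread between libraries.

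Npas4 and Ptgs2 varied most from library to library, with coefficients of variation of 58.2% and 57.9%, and Rcan1 least, at 17.4%. Npas4 spanned 2.22 to 35.3 CPM, Ptgs2 2.49 to 36.3, and Rcan1 36.1 to 86.0. Arc spanned 16.4 to 128 CPM with a median of 51.1. The count of Klf4 was 0 in F_D2-targeted 17907 and that of Ier2 was 0 in F_D1-D2-targeted 19610, both among the 4 shallow libraries. A count of 0 there allows up to 3.08 and 4.82 CPM, for counting error only (3 counts), so neither value is a loss of expression at this depth.

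**Figure D1:**
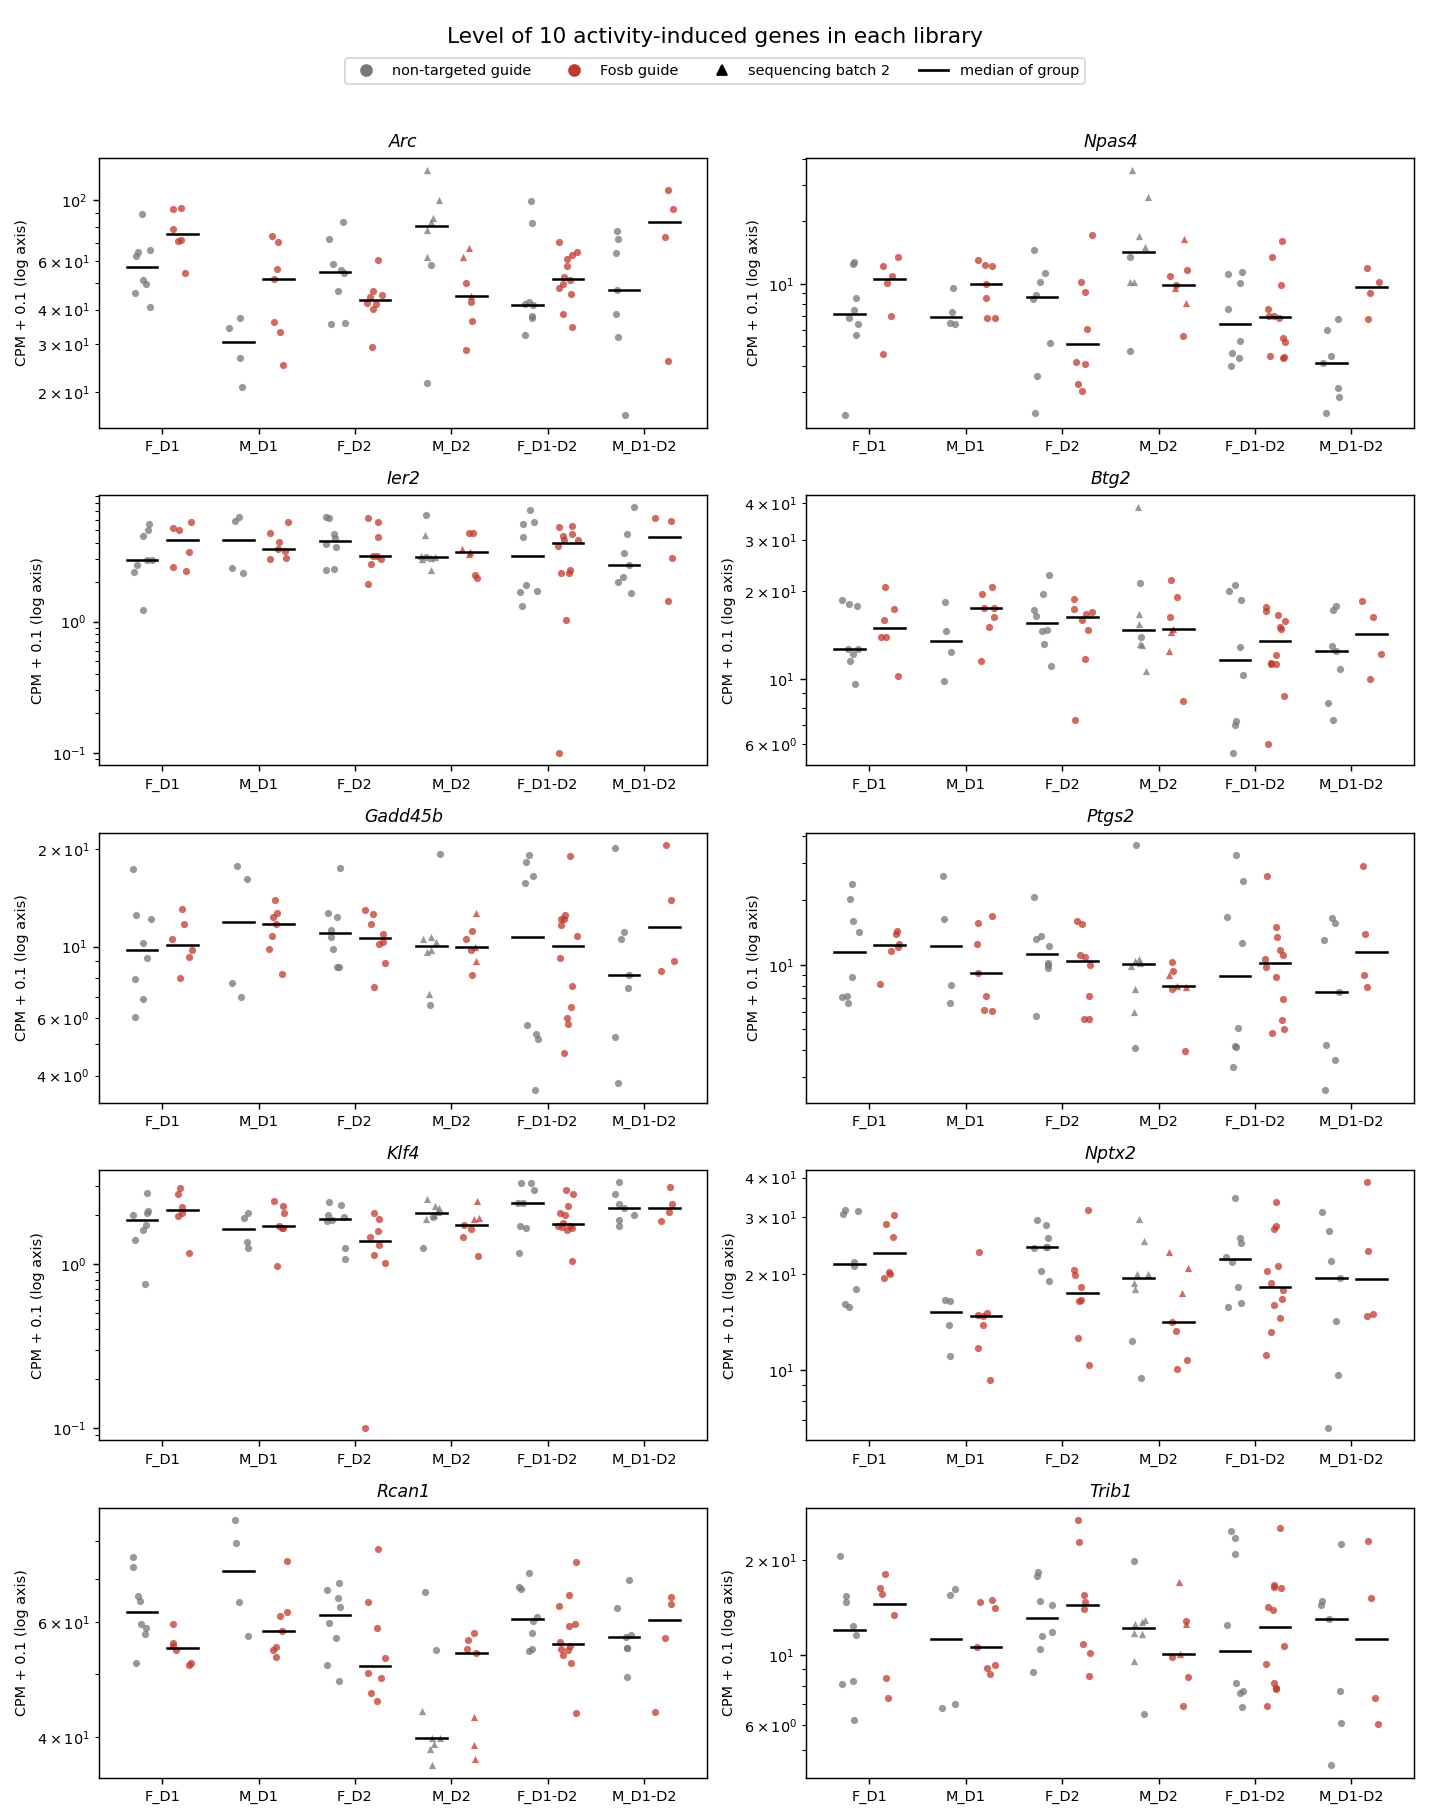
Each panel shows 1 gene, with CPM plus 0.1 on a log axis against the 6 arms, controls in grey, targeted libraries in red, batch 2 libraries as triangles and a bar at each group's median. Guides overlap in every panel and arm but Npas4 in M_D1-D2, and the M_D2 controls of batch 2 are high for Arc and low for Rcan1.

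Of the 10 members, 0 passed an adjusted p of 0.05 between guides in any of the 6 arms with edgeR. In all genes tested, the share that passed was 0.00393% in F_D1, 0% in M_D1, 0% in F_D2, 0.0629% in M_D2, 0% in F_D1-D2 and 0.00393% in M_D1-D2. At an unadjusted p under 0.05 the members numbered 1, 2, 0, 0, 0 and 2 in the same order, where 4.48%, 7.11%, 1.66%, 2.18%, 3.4% and 3.22% of all genes did so. The median log2 difference over the members was 0.12, 0.03, −0.14, −0.11, −0.10 and 0.35, beside medians over all genes between −0.03 and 0.03. The values below describe individual genes, from which the choice of members allows nothing further to be read.

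Arc, the synaptic effector, lay higher with the Fosb guide in both D1 arms and lower in both D2 arms. In F_D1 it spanned 40.8 to 89.1 CPM in controls (median 56.9) and 54.1 to 93.8 in targeted libraries (median 74.9), a log2 difference of 0.39 (SE 0.25). In M_D1 the 4 controls had 20.9, 26.5, 34.1 and 37.2 CPM and the 7 targeted libraries 25.1 to 74.0 (median 51.7), a log2 difference of 0.74 (SE 0.31). Of those 7 targeted libraries, 4 lay above every control and the rest overlapped them. Leaving out 1 control at a time moved the M_D1 difference between 0.58 and 0.86, and without 18722 it was 0.83 (SE 0.29). Cortical glutamatergic markers, which stand for tissue outside the accumbens, summed to 86.8 to 749 CPM in F_D1-targeted and 41.9 to 275 in F_D1-control libraries, and to 36.7 to 422 and 31.7 to 552 in the M_D1 groups, and their part in the Arc values was not tested.

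In F_D2, Arc spanned 35.4 to 83.2 CPM in controls (median 54.9) and 29.0 to 60.4 with the Fosb guide (median 43.3), a log2 difference of −0.34 (SE 0.24). In M_D2 it spanned 21.5 to 128 CPM in controls (median 80.4) and 28.5 to 67.0 in targeted libraries (median 44.9), −0.39 (SE 0.27) with a term for batch. The guides overlapped in both arms, with 1 of 8 targeted females above the control median and 0 of 7 targeted males. In M_D2, 6 of 8 controls but 3 of 7 targeted libraries are from batch 2, where Arc was higher, so these medians and counts mix guide with batch. The Arc medians were 39.7 CPM in controls and 39.4 in targeted libraries within batch 1, and 84.6 and 61.9 within batch 2. The control with 128 CPM of Arc, 3631, had the lowest medium spiny sum of all libraries (764 CPM) and the highest cortical sum (1120). Cortical markers summed to 35.9 to 824 CPM in F_D2 controls and 32.3 to 230 in targeted libraries. In M_D2 they summed to 60.6 to 1120 and 32.4 to 983 CPM, and their part in the Arc values was not tested. The F_D1-D2 arm had an Arc difference of 0.02 (SE 0.22). In M_D1-D2 the targeted libraries had 25.8, 73.3, 92.9 and 108 CPM against 16.4 to 77.0 in 7 controls (median 46.8), 0.60 (SE 0.30), and the one low library was 18749. Without it the Arc difference in M_D1-D2 was 0.94 (SE 0.30).

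Nptx2, the other synaptic member, differed by 0.04 (SE 0.23) in F_D1 and 0.02 (SE 0.27) in M_D1 on the log2 scale. Its largest difference between guides was in F_D2, −0.42 (SE 0.22), where controls spanned 18.8 to 29.5 CPM (median 24.1) and targeted libraries 10.3 to 31.7 (median 17.3). There 5 of the 8 targeted libraries lay below every control and 1 lay above them all. In M_D2 the Nptx2 difference was 0.00 (SE 0.24), in F_D1-D2 −0.17 (SE 0.20) and in M_D1-D2 0.35 (SE 0.27), which was −0.02 (SE 0.31) without targeted library 17728.

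Npas4, the calcium-responsive transcription factor, had its largest difference in M_D1-D2. The 4 targeted libraries had 6.65, 8.95, 10.1 and 11.9 CPM, and the 7 controls 2.28 to 6.64 (median 4.05), a log2 difference of 1.12 (SE 0.41). The guides did not overlap, though the lowest targeted library (18749) and the highest control (19109) were nearly equal. Library 18749 is also the one close to equal to a library of the M_D1 arm. The highest targeted value, 11.9 CPM, is from the shallow library 18919 and rests on 12 counts. The controls of this arm had the lowest mean Npas4 of any group, 4.14 CPM. The share of all genes without overlap was not counted, so nothing particular to Npas4 is read from it. Leaving out 1 targeted library at a time gave log2 differences of 1.06 to 1.32. The lowest control, 19511, also had the least Arc and Ptgs2 of the controls, and a medium spiny sum of 875 CPM. The interferon-induced genes described below summed to 201 CPM in 19511 and 440 in control 19220. They summed to 2029 to 3115 CPM in the other controls and 1574 to 2924 in targeted libraries. The part of these sums in the guide differences was not tested. In the other arms the Npas4 guides overlapped, at 0.32 (SE 0.34) in F_D1, 0.43 (0.41) in M_D1, −0.18 (0.33) in F_D2, −0.43 (0.37) in M_D2 and −0.04 (0.30) in F_D1-D2. Without M_D2-control 3631, which held 35.3 CPM, the M_D2 value was −0.26 (SE 0.36).

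The other regulators showed smaller differences. Klf4 lay between −0.29 (SE 0.22, F_D2) and 0.26 (SE 0.22, F_D1), Ier2 between −0.13 (SE 0.34, M_D2) and 0.35 (SE 0.42, M_D1-D2), and Btg2 between −0.26 (SE 0.25, M_D2) and 0.29 (SE 0.28, M_D1) on the log2 scale. Klf4 rests on a median of 64 counts a library and Ier2 on 135.

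Among the signalling members, Rcan1 was lower with the Fosb guide in both D1 arms by small amounts. In F_D1 it spanned 51.9 to 75.5 CPM in controls (median 62.1) and 51.5 to 59.6 in targeted libraries (median 54.6), a log2 difference of −0.21 (SE 0.10), with 0 of 6 targeted libraries above the control median. In M_D1 the controls had 57.0, 64.4, 79.4 and 86.0 CPM and the targeted libraries 53.0 to 74.5 (median 58.2), −0.26 (SE 0.11). The guides overlapped in both arms. Over both sexes the Rcan1 difference in D1 was −0.24 (SE 0.07), and the share of all genes that passed in that comparison was 0.00393% with edgeR. With limma-voom and sample weights the Rcan1 values were −0.41 in M_D1 and −0.30 over both sexes, and there it was 1 of 10 members past the threshold, beside 2.94% and 0.102% of all genes. Guide differences took part in the choice of the gene, so nothing is read from that. In the other 4 arms the Rcan1 difference lay between −0.10 and 0.01.

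Ptgs2, the prostaglandin enzyme, had wide errors, from −0.65 (SE 0.41) in M_D2 to 0.80 (SE 0.49) in M_D1-D2. Within batch 1 the M_D2 value for Ptgs2 was −1.38 (SE 0.68), with the 2 controls at 4.01 and 36.3 CPM and targeted libraries at 3.85 to 10.2. Within batch 2 it was −0.16 (SE 0.18), with controls at 5.96 to 10.6 CPM and targeted libraries at 7.75 to 8.84. In M_D1-D2 the targeted libraries had 7.76, 8.91, 13.9 and 28.8 CPM of Ptgs2 against 2.49 to 16.4 in controls (median 7.38), all 4 above the control median. The controls with the least Ptgs2, 19511 (2.49) and 19220 (3.51), had interferon sums of 201 and 440 CPM, below every targeted library, and the part of that was not tested. Without 17728, the library with 28.8 CPM, the Ptgs2 difference in M_D1-D2 was 0.24 (SE 0.57). Gadd45b differed by 0.51 (SE 0.34) in M_D1-D2, 0.19 (SE 0.39) without 17728, and by between −0.16 and 0.01 elsewhere, and Trib1 by between −0.10 and 0.22 in the 6 arms. Without 17728 the M_D1-D2 values of Trib1 and Klf4 turned to −0.20 and −0.13. Ptgs2, Gadd45b and Trib1 overlapped between guides in each arm.

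**Figure D2:**
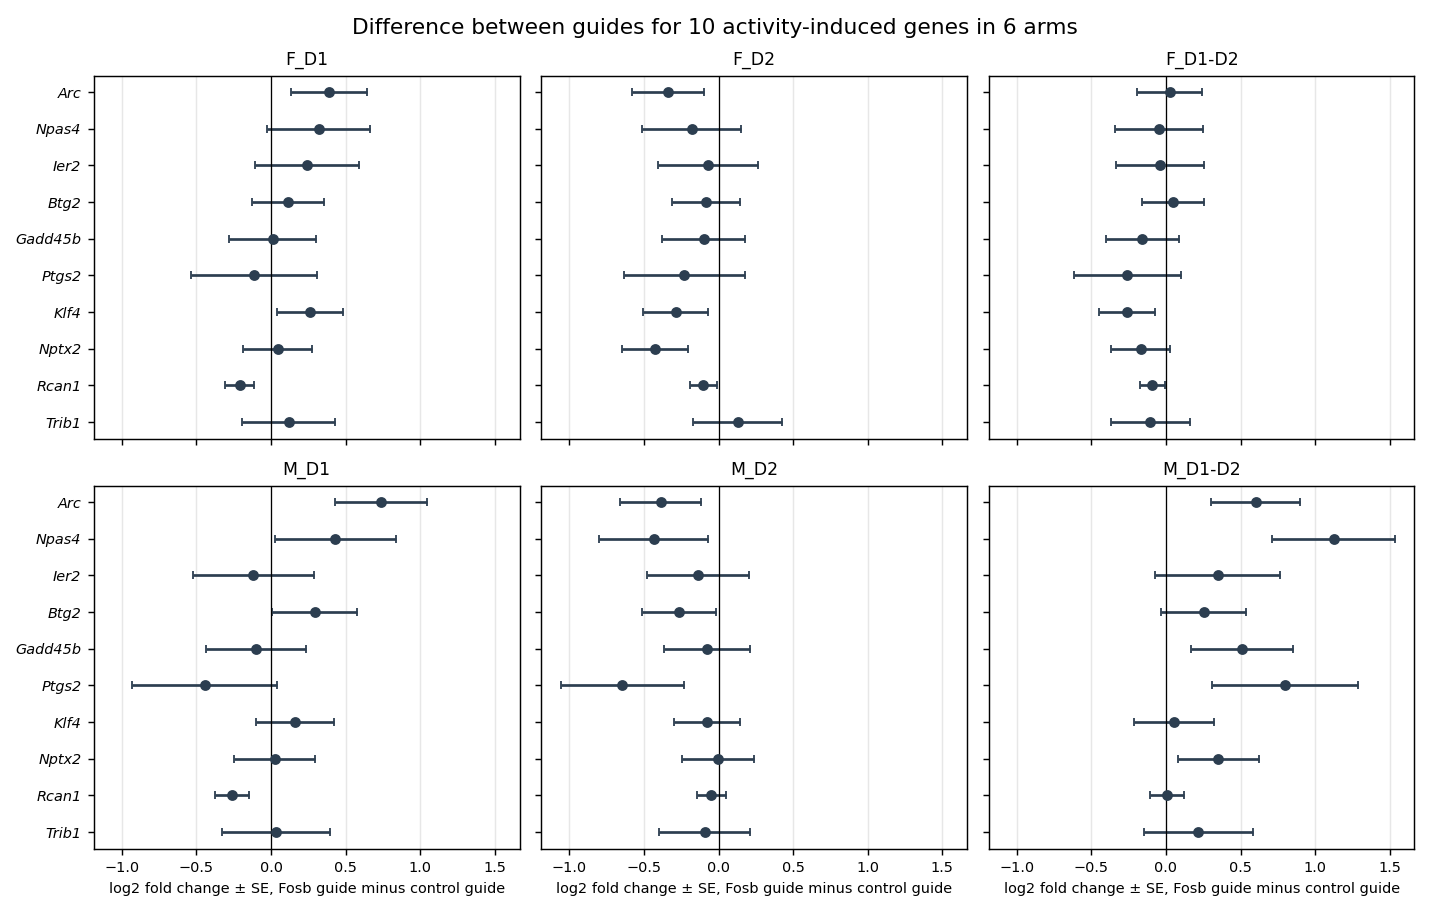
Each panel is 1 arm, with the log2 difference between the Fosb guide and the control guide on the horizontal axis for the 10 genes and bars of 1 SE from edgeR. Arc lies right of 0 in both D1 panels and left of 0 in both D2 panels, and Rcan1 has the shortest bars.

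Set against each other, the D1 and D2 arms differed most for Arc. The guide difference was 0.56 (SE 0.20) over both sexes in D1 and −0.36 (SE 0.18) in D2, and the D1 value minus the D2 value was 0.93 (SE 0.27). It was 0.73 (SE 0.35) in females and 1.13 (SE 0.41) in males. Using batch 1 libraries alone it was 0.74 (SE 0.31), and without the term for batch 1.09 (SE 0.28). None of the 10 members passed in this comparison, nor did more than 0.00393% of all genes (0.00393% in females and 0% in males). Next came Npas4 at 0.68 (SE 0.36), Klf4 at 0.39 (SE 0.23) and Btg2 at 0.38 (SE 0.25), while Rcan1 had −0.16 (SE 0.10). The remaining 5 lay between 0.04 and 0.25.

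Between D1-Cre and D2-Cre control libraries no member passed either, where 0.0197% of all genes passed in females and 0% in males. Arc differed by 0.09 (SE 0.24) in females and −0.68 (SE 0.36) in males, D1 minus D2. Npas4 differed by −0.05 (SE 0.32) and −0.65 (SE 0.49), and Rcan1 by 0.07 (SE 0.09) and 0.29 (SE 0.13). The male comparison rests on the batch term, because 6 of the 8 M_D2 controls are from batch 2 and none of the M_D1 controls is. Without that term, Arc had −1.38, Npas4 −1.17 and Rcan1 0.68, and these 3 of 10 members were past the threshold where 49.6% of all genes were. Nothing is read from that count.

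Batch divided the M_D2 libraries. Rcan1 had 54.3 and 66.7 CPM in the 2 batch 1 controls and 36.1 to 43.8 in the 6 batch 2 controls, with 53.8 to 57.7 and 36.9 to 42.8 in targeted libraries of batch 1 and batch 2. The batches did not overlap for Rcan1 with either guide. The share of all genes that separate by batch was not counted, so nothing particular to Rcan1 is read from that. Arc had 21.5 and 57.9 CPM in batch 1 controls and 62.3 to 128 in those of batch 2, and Nptx2 9.32 and 12.2 against 17.9 to 29.6. In a comparison added after the data were seen, batch 2 minus batch 1 was −0.55 (SE 0.10, adjusted p = 1.55e-06) for Rcan1, 0.89 (SE 0.25, adjusted p = 0.00138) for Nptx2 and 0.84 (SE 0.28, adjusted p = 0.00676) for Arc. These 3 of 10 members passed where 62.3% of all genes did (edgeR). Fosb (0.74) and Egr1 (1.34) passed as well, and Fos (0.11) did not. Other activity-induced genes passed in both directions. At most 4 a list are named, smallest p first. Among them Nr4a1 (1.00), Nr4a2 (3.13), Nr4a3 (1.34), Fosl1 (2.42), Fosl2 (0.69), Egr4 (1.02), Egr3 (0.55) and Dusp4 (0.47) were higher. So were Sik1 (1.12), Per1 (0.69), Sorcs3 (0.96), Vgf (0.94), Gpr3 (1.13) and Bdnf (2.56). Junb (−0.525), Csrnp1 (−1.275) and Amigo3 (−1.05) were lower. The interferon genes that passed, Ifi27 (−0.84), Usp18 (−1.495) and Oas1a (−1.41), were all lower. In the same comparison 7 of 10 cortical glutamatergic markers were higher (list median 2.20, with Slc17a7 at 2.90 and Neurod6 at 2.27 not among them), and the cortical list summed to 60.6 to 1120 CPM in batch 2 and 32.4 to 351 in batch 1. Of the other cell type lists, 4 higher and 5 lower of 12 medium spiny markers passed, 4 and 0 of 8 interneuron ones, 2 and 1 of 8 septal and pallidal ones, 2 and 3 of 10 endothelial and mural ones, 2 and 5 of 10 microglial ones, 1 and 4 of 8 oligodendrocyte ones, 0 and 5 of 8 astrocyte ones, 1 and 2 of 7 choroid ones, 0 and 5 of 5 erythrocyte ones and 0 of 10 lymphocyte ones. The part of those cells in the result was not tested.

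Within batches, the M_D2 guide difference for Arc was −0.05 (SE 0.41) in batch 1 and −0.63 (SE 0.22) in batch 2, the latter added after the data were seen. In batch 2 the 6 controls had 62.3 to 128 CPM of Arc and the 3 targeted libraries 44.9, 61.9 and 67.0. The M_D2 difference for Npas4 was 0.03 (SE 0.55) in batch 1 and −0.76 (SE 0.43) in batch 2. For both genes the whole-arm value lay within the SE of the batch 1 value. Batch 1 holds only 2 controls, so it does not decide whether the difference of the whole arm holds there.

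**Figure D3:**
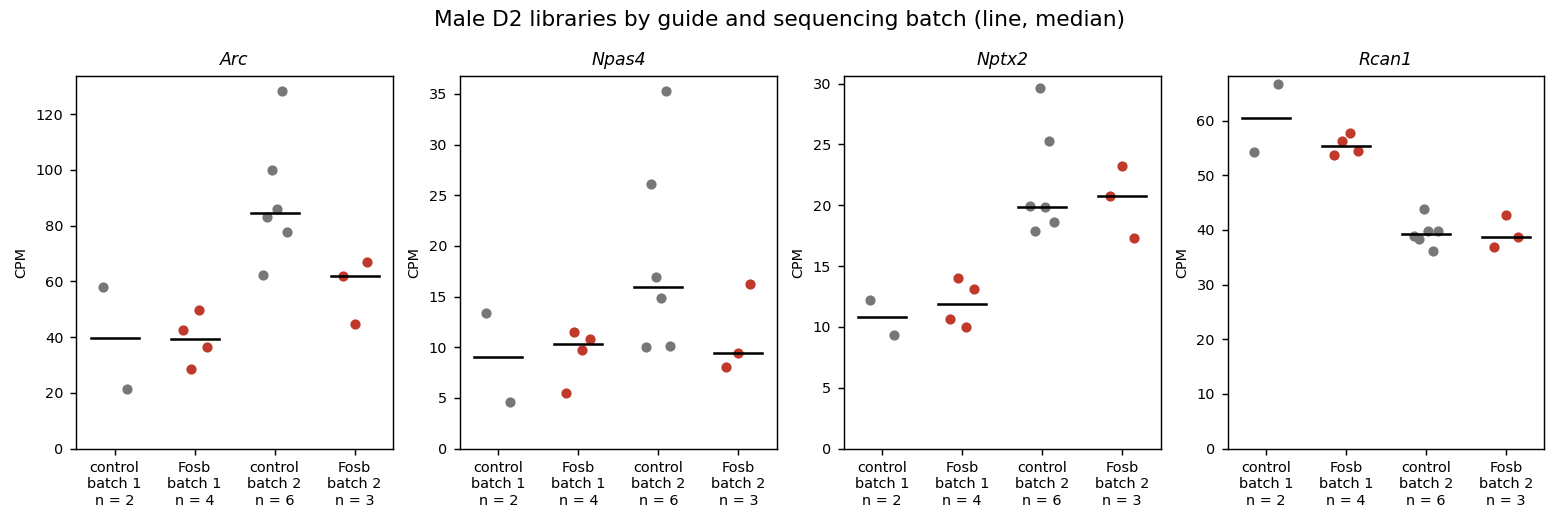
M_D2 libraries only, with CPM on a linear axis from 0, split by guide and sequencing batch, 1 point per library and a bar at the median. Rcan1 separates by batch at 36.1 to 43.8 against 53.8 to 66.7 CPM, and Arc and Nptx2 are higher in batch 2 controls than in batch 1 controls. The share of all genes that separate in this way was not counted.

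Sex, vector dependence on Cre and the sex difference of the guide response were not named in the choice of genes. They were tested, though the members were chosen with earlier results of these data known. Female and male control libraries of the D1 arm differed in Arc. All 8 females, at 40.8 to 89.1 CPM (median 56.9), lay above all 4 males, at 20.9, 26.5, 34.1 and 37.2 CPM, a log2 difference of 0.99 (SE 0.30, adjusted p = 0.0146, edgeR). Arc was the 1 member of 10 that passed, where 22.4% of all genes did, so nothing particular to the members is read from that count. The share of all genes in which every female lay above every male was not counted. Without M_D1-control 17789, the male with the least Arc, the difference was 0.88 (adjusted p = 0.0711), and over the other alternatives the adjusted p lay between 0.00183 and 0.0462. Nptx2 differed by 0.70 (SE 0.27, adjusted p = 0.054, edgeR), with females at 15.7 to 31.5 CPM and males at 10.98, 13.8, 16.3 and 16.4.

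Other activity-induced genes also passed in that comparison: 1 of 4 Egr genes (Egr4, 0.91), 1 of 7 Fos and Jun genes (Jund, 0.56), 1 of 16 other fast activity genes (Sik1, a kinase that restrains CREB coactivators, 1.07) and 3 of 16 slow activity genes (Vgf 1.15, Scg2 0.61 and Sorcs3 0.36), all higher in females. No Nr4a or Dusp gene passed. Of all genes 22.4% passed there, so nothing particular to these lists or to the marker lists is read from their counts. Markers of several cell types moved the same way, among them 2 of 10 microglial genes (Csf1r 1.14, Cx3cr1 0.81), 1 of 8 astrocyte genes (Slc1a3 0.90), 3 of 10 endothelial and mural genes (Pdgfrb 1.02, Tek 0.64, Flt1 0.79) and 3 of 12 medium spiny genes (Drd2 1.08, Bcl11b 0.70, Pdyn 0.89). Cortical (Cux2 1.47), septal and pallidal (Lhx6 1.20, Prdm16 0.73), interneuron (Chat 1.25, Slc5a7 1.14) and lymphocyte (Cd4 1.055) markers also passed, higher in females. The medium spiny list summed to 1843 to 4142 CPM in the females and 1904 to 2442 in the males, the endothelial list to 207.9 to 384.1 and 200.4 to 263.3, and the microglial list to 992.8 to 2156 and 557.8 to 1569. The astrocyte list did not overlap, at 3113 to 4965 CPM in the females and 2204 to 2792 in the males. Their part in the Arc result was not tested.

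In D2 controls, 0 of 10 members passed between sexes where 0.0551% of all genes did. Nptx2 had 18.8 to 29.5 CPM in females and 9.32 to 29.6 in males, 1.07 (SE 0.29, adjusted p = 0.434) after the batch term, since only 2 males were from batch 1. In D1-D2 controls 0 of 10 passed beside 0.0629% of all genes, and Arc differed there by 0.07 (SE 0.24, adjusted p = 0.989). The guide difference in females minus that in males passed for 0 of 10 members in each arm, beside 0.00393% (D1), 0% (D2) and 0% (D1-D2) of all genes. For Npas4 in the D1-D2 arms this difference of differences was −1.17 (SE 0.51) and for Ptgs2 −1.06 (SE 0.61), both with an adjusted p of 1.

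D1-Cre control mice given Cre-independent rather than Cre-dependent vectors showed 0 of 10 members past the threshold in females (0.00393% of all genes) and 0 of 10 in males (10.1% of all genes). In males Rcan1 had 49.4 to 69.7 CPM with the Cre-independent vector (median 56.9) against 57.0, 64.4, 79.4 and 86.0, −0.31 (SE 0.11, adjusted p = 0.0635). Arc had 16.4 to 77.0 CPM (median 46.8) against 20.9 to 37.2, 0.74 (SE 0.31, adjusted p = 0.105), and Npas4 2.28 to 6.64 (median 4.05) against 6.33 to 9.45, −0.82 (SE 0.40, adjusted p = 0.174). These comparisons share the 4 M_D1 controls with the sex comparison of D1 controls. Other activity genes that passed in males were 1 of 4 Egr genes (Egr4, 0.88), 2 of 16 other fast genes (Sik1 0.87, Per1 0.65) and 1 of 16 slow genes (Vgf, 0.88), all higher with the Cre-independent vector. Markers that passed the same way were 1 of 10 cortical (Cux2 1.49), 1 of 8 septal and pallidal (Lhx6 1.31), 1 of 10 endothelial and mural (Pdgfrb 0.88), 1 of 8 astrocyte (Slc1a3 0.86) and 1 of 10 microglial genes (Cx3cr1 0.71), beside the 10.1% of all genes, and their part was not tested.

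Within groups the 10 genes did not vary as 1 program. After removal of group and batch means, the levels (log2 CPM) of Gadd45b, Ptgs2 and Trib1 moved together over the 87 libraries, with Pearson's r of 0.87 for Gadd45b with Ptgs2, 0.86 for Gadd45b with Trib1 and 0.82 for Ptgs2 with Trib1. Ier2 and Btg2 moved with Gadd45b at 0.66 and 0.62. Without the 4 shallow libraries Ier2 had r of 0.845 with Gadd45b, 0.788 with Ptgs2 and 0.866 with Trib1, and Btg2 had 0.638 with Gadd45b. Arc stood apart from these, at r = −0.002 with Gadd45b, −0.018 with Ptgs2 and −0.015 with Trib1. It moved with Npas4 at 0.41 and with Nptx2 at 0.35. Npas4 had negative r with Rcan1 (−0.37), Ier2 (−0.32) and Gadd45b (−0.28). The libraries share their dissection and their depth limits, and these values are given as a description without a test.

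The lists of other activity-induced genes divided the members the same way. Arc followed the mean of the 4 Egr genes at r = 0.74 and of the 3 Nr4a genes at 0.50, and Npas4 the Egr mean at 0.36. Gadd45b, Trib1 and Ptgs2 followed the 16 other fast activity genes at 0.92, 0.90 and 0.83 and the Egr genes at 0.02, 0.14 and 0.03. Ier2 followed the 6 Dusp genes at 0.80, with the 4 shallow libraries included. Nptx2 was the member with sizeable r on both sides, at 0.51 with the Egr mean and 0.64 with the Fos and Jun mean.

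Gadd45b, Ptgs2 and Trib1 also followed the mean of 12 interferon-induced genes, at r = 0.85, 0.79 and 0.73. Btg2 did so at 0.55, Ier2 at 0.51, Rcan1 at 0.45 and Nptx2 at 0.32, while Arc had −0.03 and Npas4 −0.27. With microglial markers the values were 0.71 for Gadd45b, 0.63 for Trib1 and 0.57 for Ptgs2, and with lymphocyte markers 0.74, 0.67 and 0.64. All 12 interferon genes, 10 microglial and 10 lymphocyte markers were detected in each group. The interferon list summed to 82.8 to 4020 CPM, the microglial list to 435.9 to 2504 and the lymphocyte list to 11.3 to 436. With medium spiny markers the 3 genes had r of −0.24 to −0.14 and Arc 0.20. The part of immune cells, or of RNA from the members in any one cell type, was not tested.

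**Figure D4:**
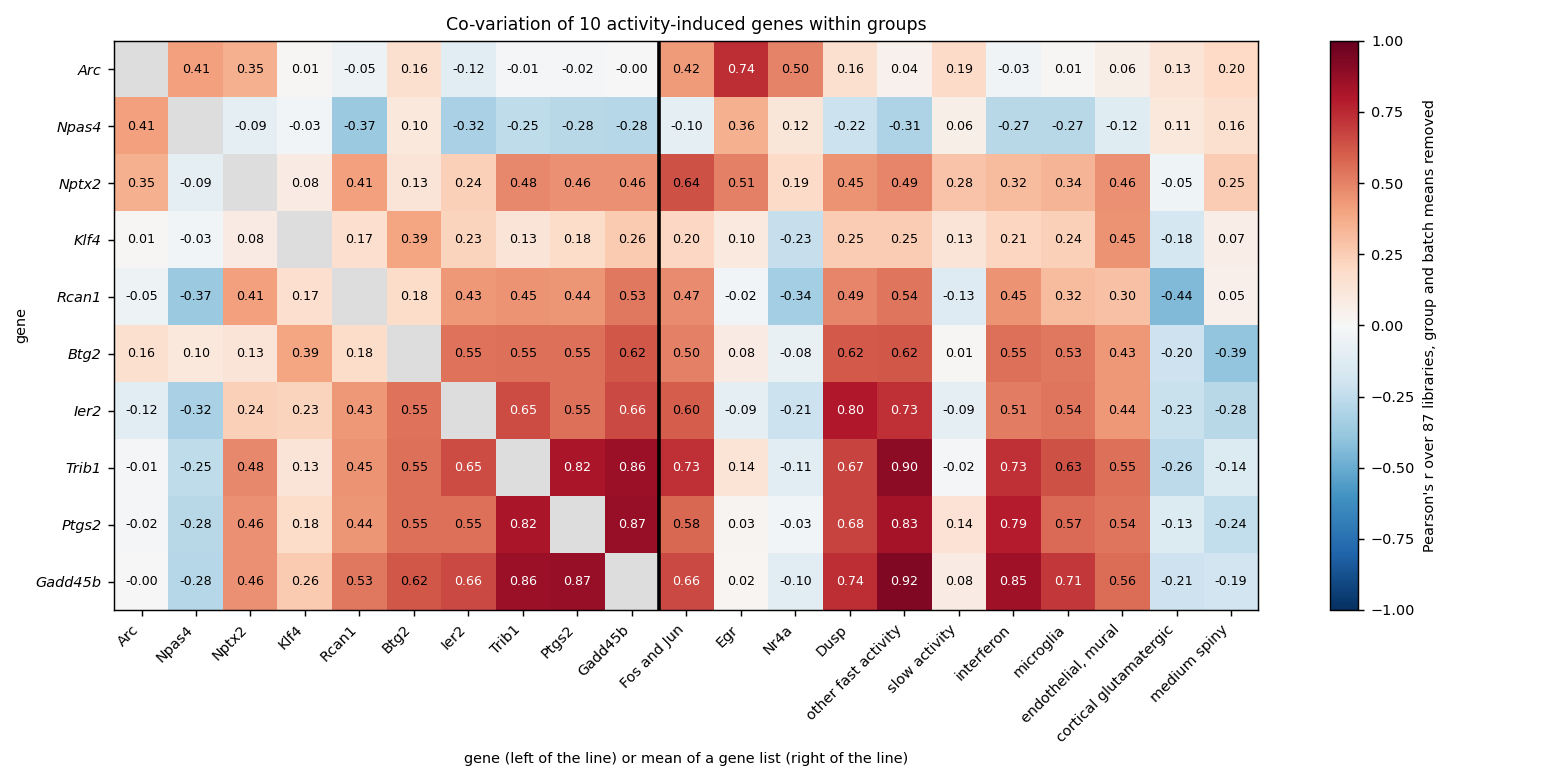
Rows are the 10 genes and columns are the same genes (left of the line) and means of gene lists (right), with each cell giving Pearson's r of log2 CPM over 87 libraries after group and batch means were removed. The block of Trib1, Ptgs2 and Gadd45b at 0.82 to 0.87 extends into the other fast activity and interferon columns, where Arc has 0.04 and −0.03.

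Within single groups the values varied. In the 10 groups that kept 6 or more libraries without the 4 shallow ones, r between Gadd45b and the interferon mean was above 0 in 10 and above 0.5 in 9 (median 0.87, lowest 0.10 in M_D2-targeted). Between Gadd45b and Trib1 it was above 0.5 in all 10 (0.71 to 0.95), and between Gadd45b and Ptgs2 in 9 (0.18 to 0.99). For Ier2 with Gadd45b it was above 0.5 in all 10 (0.60 to 0.97), and for Btg2 with Gadd45b in 4 (−0.02 to 0.87). For Ier2 with the interferon mean it was above 0.5 in 8 (median 0.75, −0.20 to 0.96), and for Btg2 in 4 (median 0.36, −0.19 to 0.92). Between Arc and the Egr mean it was above 0.5 in all 10 groups (0.55 to 0.91), while between Arc and the interferon mean it lay between −0.75 and 0.71 and was above 0 in 4. Ptgs2 followed the interferon mean at an r above 0 in 8 of 10 groups, with −0.02 in F_D1-targeted and −0.20 in M_D2-targeted, and Trib1 in 9, with −0.36 in M_D2-targeted. In M_D1-D2-control Arc did not stand apart, at 0.71 with the interferon mean and 0.68 with Gadd45b. Between Arc and Npas4 it ranged from −0.44 to 0.93. These within-group values were added after the data were seen.

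The 8 F_D1-D2 control libraries show the pattern by library. In libraries 19754, 19599, 19750 and 19598 the interferon list summed to 82.8, 139, 141 and 232 CPM, and in 19719, 19762, 16760 and 19727 to 2730, 2893, 3135 and 3336. In the same order Gadd45b had 5.29, 3.50, 5.08 and 5.61 CPM and then 15.6, 19.0, 18.2 and 16.4. Ptgs2 had 4.95, 3.23, 4.04 and 4.07 and then 12.6, 16.7, 24.5 and 32.4, and Trib1 8.06, 7.49, 7.61 and 6.74 and then 20.8, 12.4, 24.6 and 23.4. The first 4 and last 4 libraries did not overlap for any of these 3 genes. Ier2 (1.21 to 1.81, then 4.35 to 6.96) and Btg2 (5.51 to 10.3, then 12.8 to 20.9) also did not overlap, in an order set here by the interferon sum and not by the labels. The share of all genes that separate in this order was not counted, so nothing particular to the members is read from it.

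Arc in the same order had 41.7, 37.7, 98.9 and 41.6 CPM and then 37.1, 42.5, 82.6 and 32.2, so its high libraries (19750 and 16760) were at opposite ends of the interferon range. Npas4 had 11.1, 11.3, 10.02 and 4.31 and then 5.18, 3.90, 7.49 and 4.53. Nptx2 and Klf4 overlapped, and Rcan1 had 54.1 to 60.9 and then 60.3 to 71.2. The microglial sum was 453.5 to 794.3 CPM in the first 4 and 1709 to 2264 in the last 4, and the lymphocyte sum 21.4 to 33.5 and 205.8 to 324.6. The medium spiny sum did not overlap either, at 3127 to 4774 and 2445 to 2724 CPM, and the cortical sum did, at 71.6 to 510.4 and 53.6 to 188.2 CPM. The part of these cells in the values was not tested.

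**Figure D5:**
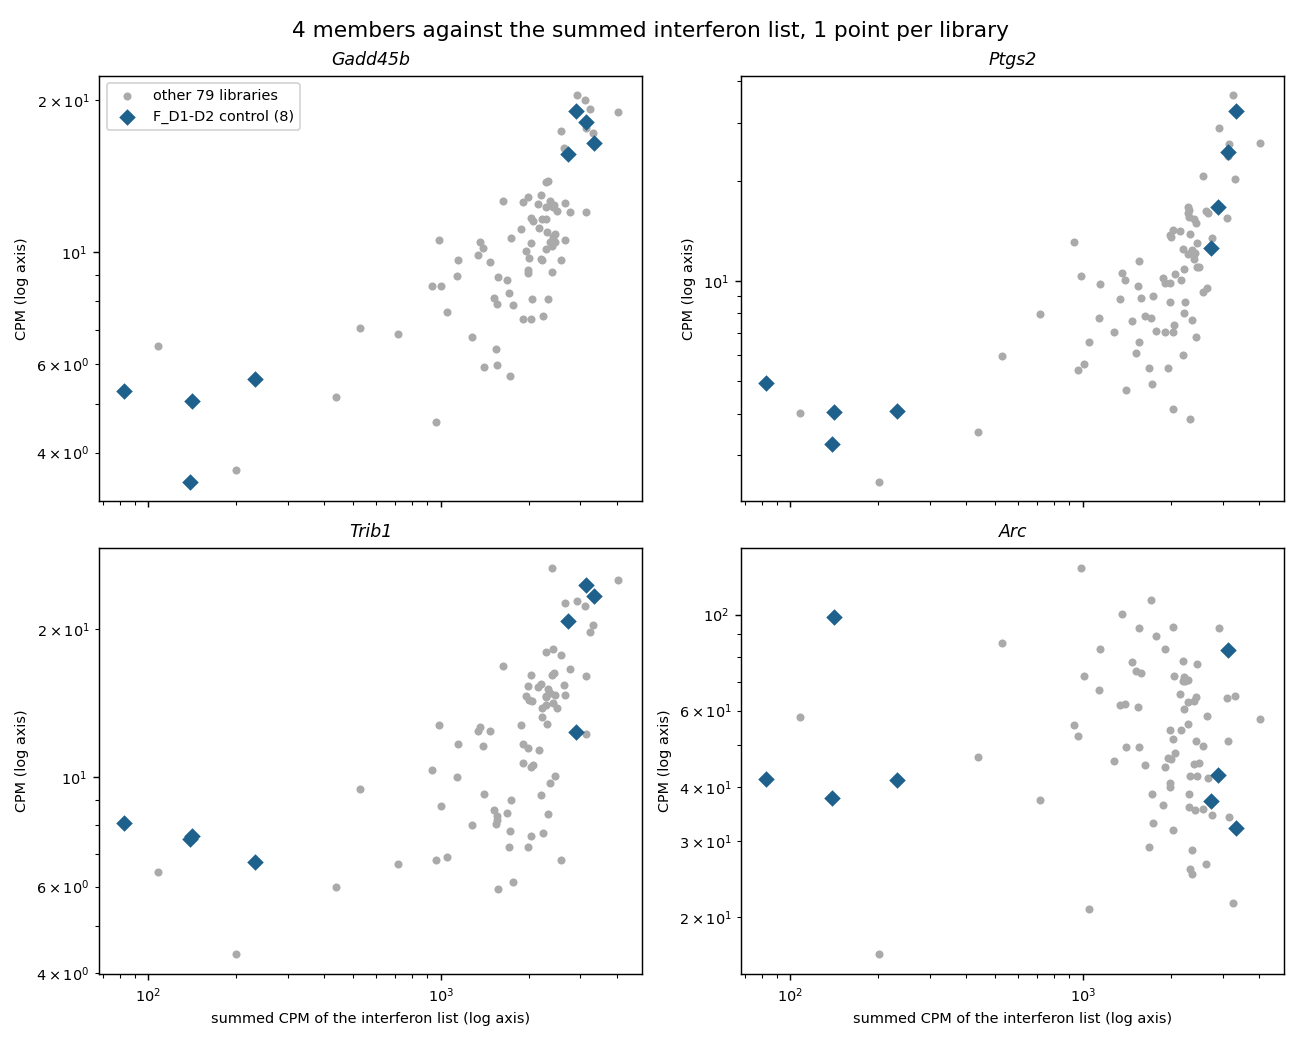
Each point is 1 of 87 libraries, with the summed CPM of the 12 interferon genes on the horizontal log axis and the CPM of Gadd45b, Ptgs2, Trib1 or Arc on the vertical log axis, and F_D1-D2 controls as blue diamonds. The first 3 genes climb along the axis, and Arc has high and low libraries at every sum.

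Genes most like each member in the same residual levels, among genes with a mean CPM of at least 1, were taken by r alone. For Arc they were Nr4a1 (r = 0.87, n = 87), Egr4 (0.72), Arl4d (0.65), Sik1 (0.64) and Egr2 (0.62). For Gadd45b they were Trafd1, Csrnp1, Ifit2, Myd88 and Rnf135, all between 0.90 and 0.91, and for Ptgs2 Gadd45b, Klf6, Rsad2, Ifit2 and Samd9l, between 0.86 and 0.87. Jun (0.93) and Csrnp1 (0.91) led for Trib1, followed by Zyx, Hmga1 and LTO1. Ifit2 and Rsad2 are interferon-induced antiviral genes and Myd88 an adaptor of Toll-like receptors. For Btg2 the closest was Fos (0.80), then S1pr4, Tbc1d1, Ccn1 and Rps6kb2.

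Npas4 had no close companion, with Dusp1 at 0.52 followed by Sox12, Shisa8, Emsy and Tob1 at 0.45 to 0.49. For Nptx2 the 5 were Eepd1, Plxnd1, Grina, Trnp1 and Gpd1 (0.71 to 0.73), and for Rcan1 Stard3, Zcwpw1, Mgat1, Adipor2 and Marc2 (0.68 to 0.73). The companions of Ier2 (Relb, Scarf1, Plp2, Tubb6 and Adgrg6, 0.89 to 0.92) and of Klf4 (Slc51a, Rhobtb1, Vasn, Foxf2 and Enkd1, 0.79 to 0.82) rest on the 4 shallow libraries: without them 0 of these 5 stayed among the 5 closest for either gene, against 5 of 5 for Arc. Of the 5 named above, 4 stayed for Ptgs2, Nptx2 and Trib1, 3 for Gadd45b and Rcan1, 2 for Btg2 and 1 for Npas4. Klf4 had r = 0.45 with the mean of 10 endothelial and mural markers, its highest value among the lists.

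Across the rest of the activity-induced program, 0 of 52 genes passed between guides in any arm: 7 Fos and Jun, 4 Egr, 3 Nr4a, 6 Dusp, 16 other fast and 16 slow activity genes. The list medians of log2 difference in F_D1, M_D1, F_D2 and M_D2 were 0.32, 0.61, −0.23 and −0.24 for the Egr genes and 0.90, 0.07, −0.16 and −0.59 for the Nr4a genes. For the 16 other fast activity genes, which Gadd45b and Trib1 followed, they were 0.01, 0.11, 0.03 and −0.03. The arms of 1 sex share no libraries, and all these comparisons were among those used in the choice of genes. Fos, a reference immediate early gene, differed by 0.22, 0.46, 0.08 and −0.31 in the same arms, and Egr1, another, by 0.70, 0.54, 0.01 and −0.24.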

How the data were processed

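Bulk RNA was sequenced from mouse nucleus accumbens, 1 library per label, with a stranded total RNA kit per the labels' protocols. The authors deposited 1 table of raw read counts per gene, made with Trim Galore, HISAT2, SAMtools and featureCounts (Subread) on mm10, per the submitters' processing notes, which also name DESeq2 1.27. No source used here gives the annotation or the strand setting. Of 88 labelled libraries 87 were used; 1 labelled F_D2-targeted library is not analysed here, and 1 column that matched no label was not used. No label says that the libraries of a group came from separate animals, so p-values measure only the spread between these libraries, which may be technical.

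The 10 members and every gene list were chosen with earlier results of these data known. Counts were scaled by trimmed mean of M values and filtered with filterByExpr (25420 genes kept), and 1 edgeR quasi-likelihood fit held the 12 groups and a batch term. Adjusted p-values (Benjamini-Hochberg) are over all genes kept, with a threshold of 0.05. CPM values use the same scaling, and values per kb divide by exon length. Total counts of 12430387 to 69568367 a library put the median count of a member between 64 (Klf4) and 2102 (Rcan1). Co-variation is Pearson's r of log2 CPM (prior count 2) after group and batch means were removed. Alternatives were DESeq2 size factors, the DESeq2 Wald test, limma-voom with sample weights, no filter, no batch term, batch 1 alone, a fit of only the libraries compared, and leaving out libraries. Leaving out 17376, 3631 or the pair 18722 and 18749, batch 2 alone, the comparison of batches and within-group r were added after seeing the data. Named genes are the 10 members in each arm, Fosb, Fos, Egr1, Slc17a7, Neurod6 and Cldn5, list genes that passed (at most 4 a list), and the 5 genes with the highest r with each member among those with a mean of at least 1 CPM, predicted Gm and Rik symbols left out. Motifs were sought in the full 250 bases before each RefSeq start, and the printed stretches leave out exonic bases, except for Npas4. The fit was tested on simulated data. R 4.3.3, edgeR 4.0.16, limma 3.58.1, DESeq2 1.42.0 and Python 3.11.15 were used.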

Additional observations from a re-analysis of the deposited data

Results flagged for a closer look

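In 110 sets of 4 to 10 libraries of 1 group and 1 gene, 7 held a library whose gap to the nearest one was a large share of the group's range (Dixon's criterion), where chance gives about 1 in 20 sets. M_D2-control 3631 had 38.6 CPM of Btg2, with the next library at 21.3. M_D2-control 19099 had 19.2 CPM of Gadd45b (next 10.6) and 36.3 CPM of Ptgs2 (next 10.6), and is 1 of the 2 batch 1 controls of its arm. F_D2-control 18420 had 17.4 CPM of Gadd45b (next 12.6). M_D1-targeted 19507 had 23.3 CPM of Nptx2 (next 14.9), and M_D1-targeted 18366 had 74.5 CPM of Rcan1 (next 62.1). M_D2-targeted 18718 had the lowest Ptgs2 of its group, 3.85 CPM, with the next at 7.65.

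Every targeted library of M_D1-D2 lay above its control mean for Npas4 (log2 difference 1.12) and every targeted library of M_D2 lay below its own (−0.43). Of the 8 M_D2 controls 6 are from batch 2. Within batch 1 the M_D2 controls averaged 9.02 CPM and 3 of 4 targeted libraries lay above that mean, and without control 3631 1 of 7 lay above the control mean of the arm. Within batch 1 the log2 difference was 0.03, but its 2 controls, at 4.62 and 13.4 CPM, are too few to say whether the pattern holds there. The difference between the arms was not tested.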

How the results depend on the processing

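Of 248 recounts of how many members passed, 15 were classed as moved and 233 as the same, and no member's called direction reversed. The second class also holds small changes of the count. With no filter on low counts 1 member newly passed, yet all 23 recounts there were classed as the same. Without M_D2-control 3631, 1 member newly passed and all 8 recounts were classed so. How many recounts were exactly equal is not given. With limma-voom 1 member passed between guides in M_D1 and 1 over both sexes in D1, Rcan1 each time, where edgeR called 0; 2.94% and 0.102% of all genes passed with it, and guide values took part in the choice of genes. Without the batch term 3 passed between D1 and D2 male controls, where 49.6% of all genes did, and 2 between sexes in D2 controls (Npas4 −1.05, Rcan1 0.43), where 45.1% did. With only the compared libraries fitted 1 passed there (Nptx2 1.15), beside 0.598% of all genes. Between sexes in D1 controls the count of 1 became 2 with DESeq2 size factors (24% of all genes), 2 with the DESeq2 Wald test (25.8%), 3 with limma-voom (36.9%) and 2 with only the compared libraries fitted (26.3%), and 0 to 1 without each M_D1 control in turn. For Cre dependence in males the count of 0 became 1 with size factors (Rcan1 −0.38; 8.73% of all genes), 1 with the Wald test (13.5%), 2 with limma-voom (Rcan1 −0.40, Arc 0.97; 35%), 1 without the 4 shallow libraries (Rcan1 −0.33; 10.8%) and 0 to 1 without each M_D1 control in turn (1 without 18383, 10.2%). The cause was not tested. Leaving 1 of 4 libraries out rests on the spread pooled over all groups.

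Counts over all genes moved more, with 74 of 248 recounts over 1.5 times apart. The reported 5684 between sexes in D1 controls ranged from 2605 to 9388, 2567 for Cre dependence in males from 0 to 8898, 14 between sexes in D2 controls from 11 to 11465, 0 between D1 and D2 male controls from 0 to 12597, 16 between guides in M_D2 from 0 to 427 and 0 in F_D1-D2 from 0 to 194. No paired analysis was possible because library numbers are unique and shared by no groups. Depth limits Klf4, Ier2 and Npas4 in the 4 shallow libraries, where 3 counts come to 2.74 to 4.82 CPM.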
